A study of Homo sapiens with 6 samples.

Results

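The p53 target genes examined here are a list of 31 genes known as targets of the p53 pathway, from CDKN1A and MDM2 to PERP and CASP1. A probe set counted for a member when the platform annotation gave it that symbol and no other, and the probe set with the highest mean over all 6 arrays stood for the gene. In this way 29 of the 31 members were measured, among 19775 genes in all. BBC3 had 1 probe set, shared with 2 microRNA genes, so it was given no value, and FDXR was not analysed here. RNA came from MV4;11, an established line of human acute myeloid leukaemia that carries an MLL-AF4 rearrangement, grown in serum-containing medium. The treated cells received 25 nM cortistatin A for 3 h (3 arrays), and the control cells received DMSO for the same 3 h (3 arrays). RNA was hybridised to Affymetrix Human U133 Plus 2.0 arrays, and all levels below are deposited RMA values of probe sets, read as log2. A difference is cortistatin A minus DMSO on that log2 scale.

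p53 is a transcription factor that is stabilised when DNA is damaged or growth is stressed. It switches on genes that halt the cell cycle, genes that trigger apoptosis, genes of DNA repair, and genes such as MDM2 that in turn restrain p53. Cortistatin A, a steroid-like natural product, blocks CDK8 and its paralog CDK19. These kinases belong to Mediator, the complex that links transcription factors to RNA polymerase II. In human colon carcinoma cells CDK8 has been described as a coactivator of p53 targets such as CDKN1A. The comparison asks whether p53 target transcripts differ soon after these kinases are inhibited.

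p53 binds DNA as a tetramer through pairs of a 10-base half-site, and the sequences below show where RefSeq promoter windows of measured members hold one. The windows run from 250 bases before to 50 bases after each annotated start (GRCh38.p14), and 23 of the 31 members had at least 1, with 33 windows between them. A match to the p53 half-site consensus, read on both strands, was found in 7 of these 33 windows (21.2%), against 6.63% of all 35116 windows. The half-sites are in capitals and each line is written 5′ to 3′ on the strand of the gene.
AEN: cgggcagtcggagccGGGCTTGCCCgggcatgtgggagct
DDB2: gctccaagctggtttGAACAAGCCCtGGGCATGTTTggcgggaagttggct
FAS: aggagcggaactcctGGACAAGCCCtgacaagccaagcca
PLK2: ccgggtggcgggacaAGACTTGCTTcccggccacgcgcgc
RPS27L: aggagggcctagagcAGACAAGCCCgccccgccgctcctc
SESN1: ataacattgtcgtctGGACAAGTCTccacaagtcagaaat

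These stretches lie at chr15:88621291-88621330 on the plus strand for AEN, chr11:47214964-47215014 on the plus strand for DDB2 and chr10:88991294-88991333 on the plus strand for FAS. Those of PLK2, RPS27L and SESN1 lie on the minus strand, at chr5:58460194-58460233, chr15:63157512-63157551 and chr6:109009013-109009052. DDB2 was the only one of them with 2 half-sites in a window, set 1 base apart just after the annotated start. The window of FDXR held a half-site as well. No match was found in the windows of CDKN1A, MDM2, SFN, GDF15, TIGAR, TRIAP1 or PPM1D, which says only that these letters are absent from that short stretch. Of the 6 measured genes with a half-site, 3 had a positive and 3 a negative difference after cortistatin A, from -0.26 for PLK2 to 0.23 for AEN.

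None of the 29 measured members passed the test over all genes, and the members did not move in one direction. The smallest difference called in any gene was 1.26-fold, and 4 members differed by at least 1.2-fold. Of 29 members 0 had a limma adjusted p under 0.05, against 0.582% of all genes tested. By the unadjusted limma p 9 members (31%) were under 0.05, against 12.6% of all genes. Of these 9, 6 were higher (6.81% of all genes were) and 3 lower (5.83% of all genes). The same 9 members (31%) were those whose cortistatin A and DMSO arrays did not overlap, which held for 19.4% of all genes. A share of this size was not particular to the members. It was 33.3% for the further p53 targets and 33.3% for the p53 regulators described below. For myeloid markers it was 30%, for housekeeping genes 23.8% and for markers of other cell types 8.33%. The main probe sets of 28 members lay above the median of all values, as did those of 12622 of the 19775 genes. With the other genes left out of the fit, 32.1% of the members had an unadjusted limma p under 0.05, against 18.3% of genes. Over the 29 members 18 differences were positive and 11 negative, with a median of 0.06, against 0.01 over all genes. The median size of a difference, without its sign, was 0.12 for the members and 0.08 for all genes, while the median standard error was alike at 0.08 for both. The differences ran from -0.34 for CDKN1A, or 0.791 of the DMSO level, to 0.39 for SFN, or 1.31 times the DMSO level. For 28 of the 29 members the 95% interval of the difference lay within 1.5-fold either way, the exception being SFN. In bulk RNA fewer cells with a transcript and less of it per cell cannot be told apart.

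**Figure D1:**
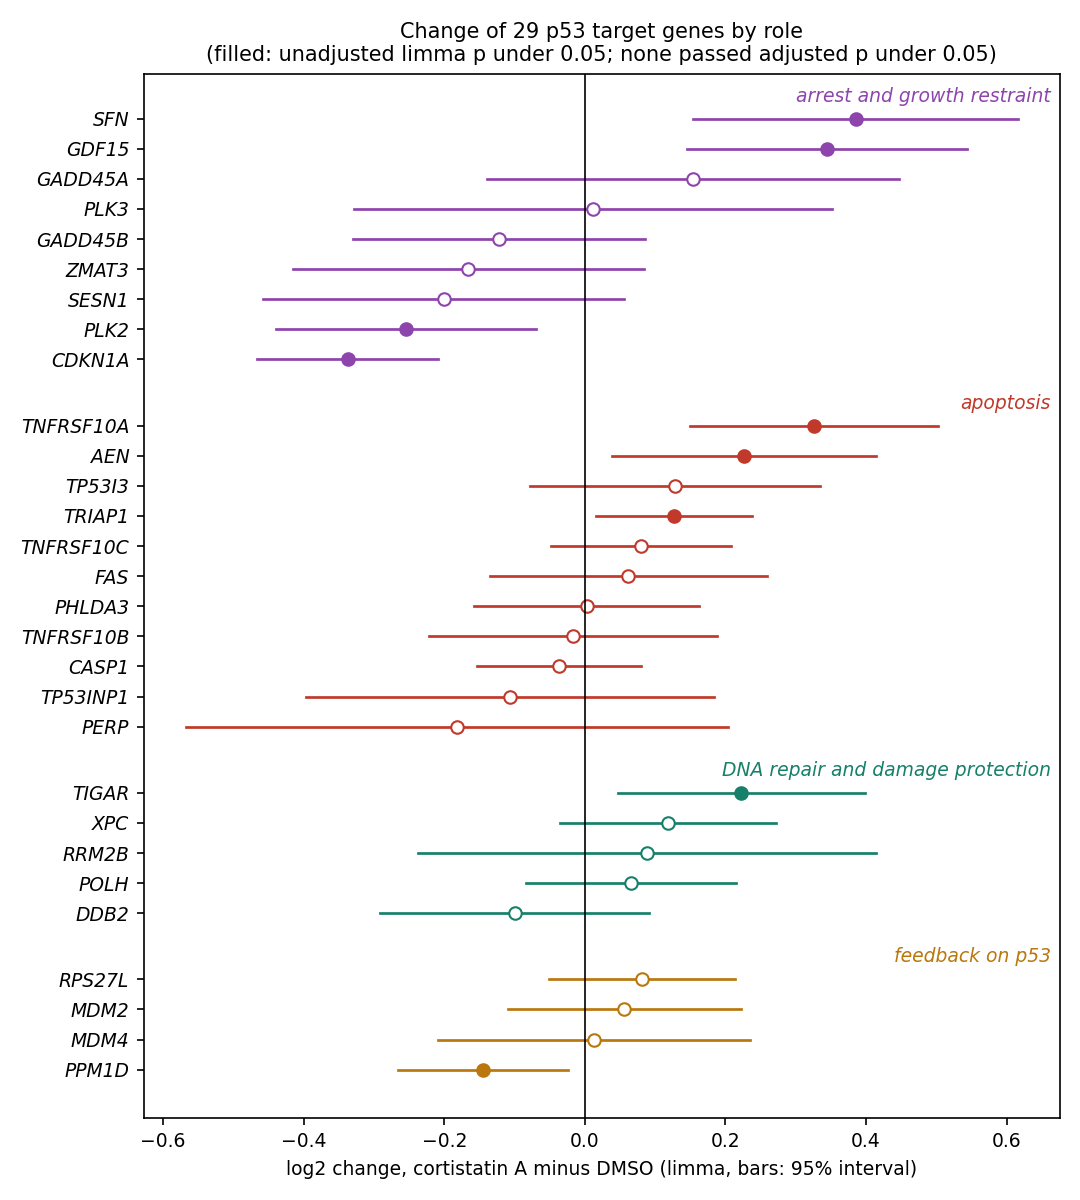
Log2 differences (cortistatin A minus DMSO) of the 29 measured p53 target genes with 95% limma intervals, grouped by role, with filled circles for an unadjusted limma p under 0.05. Filled circles stand on both sides of 0, with SFN (0.39) at one end and CDKN1A (-0.34) at the other.

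The genes of cell-cycle arrest and growth restraint held the largest differences of both signs. All 9 were measured, 4 with a positive and 5 with a negative difference (median -0.12), and 0 passed over all genes. That median was -0.05 without DMSO replicate 1, -0.07 without cortistatin A replicate 1 and -0.02 with the control index as a covariate. It turned positive only without _x_at and _s_at probe sets (0.01), a setting that drops CDKN1A and SESN1, which have no other type. The median was smaller in size than the spread of the role's median level between replicates (pooled SD 0.17). CDKN1A encodes p21, the inhibitor of cyclin-dependent kinases through which p53 stops the cell cycle, and it had the smallest p of any member. Its level was 6.48, 6.57 and 6.58 on the cortistatin A arrays, against 6.92, 6.84 and 6.89 on the DMSO arrays. Every treated array lay below every control array, with a gap wider than the range within either group. The means were 6.55 ± 0.05 with cortistatin A and 6.88 ± 0.04 with DMSO (SD, n = 3 each), a difference of -0.34 ± 0.05 (SE) or 1.26-fold lower, with a limma adjusted p of 0.0679. That is just short of the threshold, and CDKN1A stood at rank 145 of all genes by p. It was called when dim genes were left out (limma adjusted p = 0.0187) and when limma's variances were trended and robust (adjusted p = 0.00329). Without 1 array at a time the difference stayed between -0.36 and -0.31, and the limma adjusted p was 0.172 to 0.247. Over all 15 alternatives the difference lay between -0.41 and -0.28 and the limma adjusted p between 0.00329 and 0.440.

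SFN encodes 14-3-3 sigma, which keeps mitotic kinases out of the nucleus after damage. Its brightest probe set read 7.39, 7.24 and 7.22 with cortistatin A, against 6.71, 7.04 and 6.95 with DMSO. The groups did not overlap, and DMSO replicate 1 stood well below the other DMSO arrays. The difference was 0.39 ± 0.10 (limma adjusted p = 0.189). The other SFN probe set above the median of all values was at 0.07, so the size of this difference rests on the probe set chosen. That other probe set was far dimmer, at 4.67 with cortistatin A and 4.60 with DMSO. The dimmest SFN probe set, below the median, was at 0.21. Whether they read the same transcript was not tested.

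GDF15, a secreted stress cytokine of the TGF-beta family, read 4.23, 3.99 and 3.96 with cortistatin A, against 3.65, 3.73 and 3.76 with DMSO. All treated arrays were higher, with cortistatin A replicate 1 standing above the rest. The difference was 0.34 ± 0.08 (limma adjusted p = 0.184). The probe set lay close to the median of all values (3.75), and the 2 other GDF15 probe sets were below it, at 0.22 and 0.01. PLK2, a polo-like kinase induced by p53, read 3.99, 3.81 and 3.94 with cortistatin A, against 4.26, 4.19 and 4.05 with DMSO. The treated arrays were lower by a narrow gap, and the difference was -0.26 ± 0.08 (limma adjusted p = 0.253). This probe set, too, lay close to the median of all values.

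The other 5 genes of this role overlapped between the groups. SESN1, a sestrin that restrains growth signalling through mTORC1, differed by -0.20 ± 0.11, and ZMAT3, an RNA-binding zinc finger protein, by -0.17 ± 0.10. GADD45B and GADD45A, small stress proteins that bind cell-cycle and MAP kinase partners, were at -0.12 ± 0.09 and 0.15 ± 0.12. All 4 GADD45B probe sets were negative, between -0.12 and -0.07, and so were the 4 ZMAT3 probe sets above the median, between -0.33 and -0.07. PLK3, another polo-like kinase, was at 0.01 ± 0.14, with an interval from -0.33 to 0.35, so this gene was measured with less precision than most members.

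**Figure D2:**
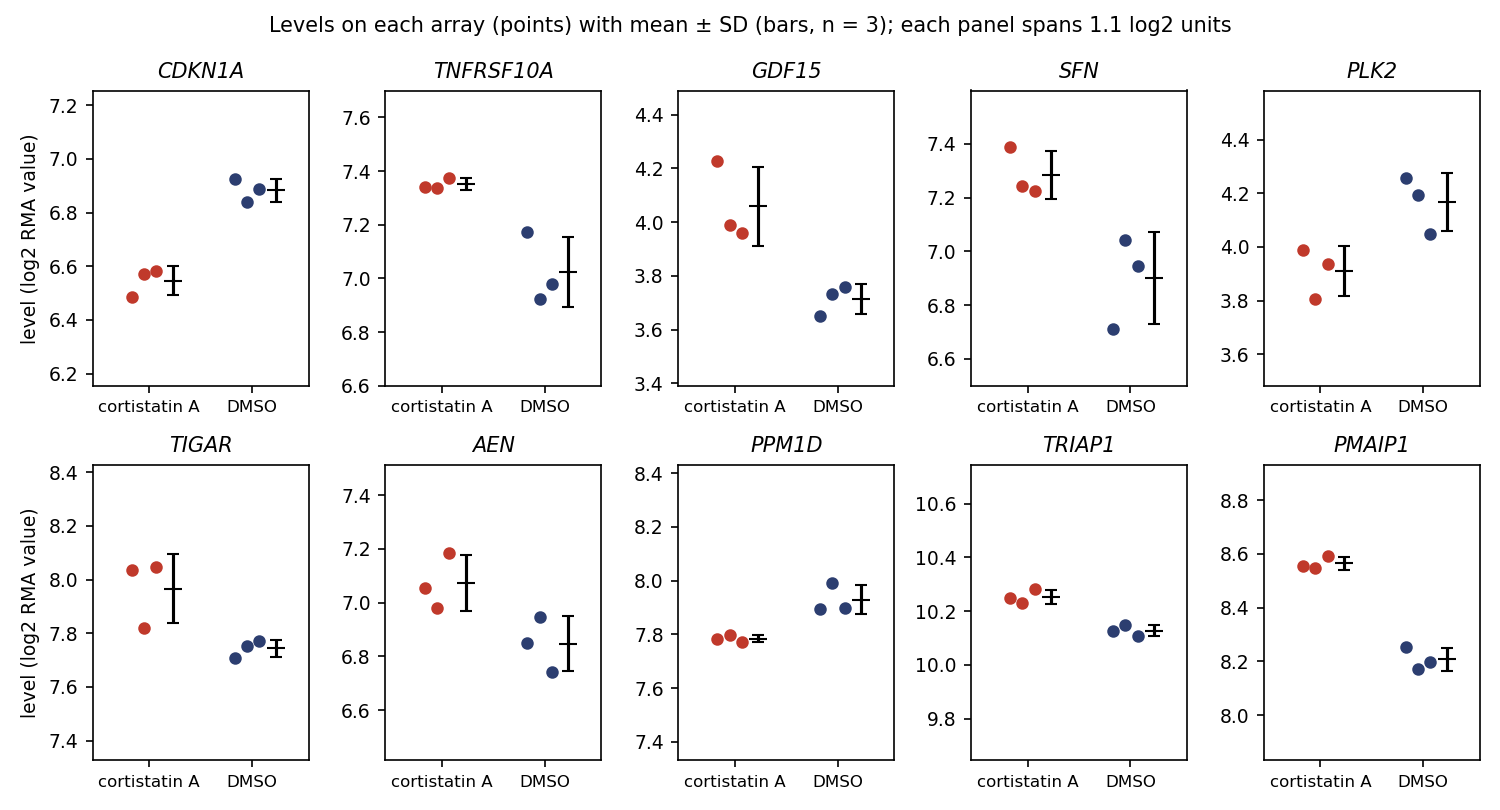
Log2 RMA levels on each array (points) with mean ± SD (n = 3) for the 9 members with an unadjusted limma p under 0.05 and for PMAIP1, with cortistatin A left of DMSO. CDKN1A, PLK2 and PPM1D were lower on every cortistatin A array, and the other 7 genes were higher.

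Among the apoptosis genes the 3 with the smallest p were all higher. Of 13 members 11 were measured, 7 with a positive and 4 with a negative difference (median 0.06), and 0 passed over all genes. TNFRSF10A encodes a death receptor for the ligand TRAIL. It read 7.34, 7.34 and 7.38 with cortistatin A, against 7.17, 6.92 and 6.98 with DMSO. The treated arrays lay close together and above all controls. The means were 7.35 ± 0.02 with cortistatin A and 7.03 ± 0.13 with DMSO (SD, n = 3 each), a difference of 0.33 ± 0.07 (SE) or 1.25-fold, with a limma adjusted p of 0.165. Both other TNFRSF10A probe sets above the median were positive but smaller, at 0.14 and 0.05.

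AEN, a nuclease that acts in apoptosis, read 7.06, 6.98 and 7.18 with cortistatin A, against 6.85, 6.95 and 6.74 with DMSO. The lowest treated array was only just above the highest control. The difference was 0.23 ± 0.08 (limma adjusted p = 0.305). TRIAP1, a small mitochondrial protein that restrains apoptosis, read 10.25, 10.23 and 10.28 with cortistatin A, against 10.13, 10.15 and 10.11 with DMSO. The replicates were tight and the groups apart, yet the difference was small, at 0.13 ± 0.05 (limma adjusted p = 0.332).

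The other death receptors stood elsewhere. TNFRSF10B, the second signalling TRAIL receptor, read 7.39, 7.33 and 7.52 with cortistatin A, against 7.39, 7.32 and 7.58 with DMSO. The 2 groups were interleaved, with a difference of -0.02 ± 0.09 and an interval from -0.22 to 0.19. Whether TNFRSF10A and TNFRSF10B differ from each other in response was not tested. TNFRSF10C, a decoy receptor without a death domain, was at 0.08 ± 0.05, with its other probe sets above the median between -0.14 and 0.02. FAS, the receptor for Fas ligand, was at 0.06 ± 0.08 from a probe set near the median of all values.

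The remaining apoptosis genes overlapped between the groups. TP53I3, an oxidoreductase linked to oxidative stress, was at 0.13 ± 0.09. PHLDA3, which holds back AKT at the membrane, was at 0.00 ± 0.07, and CASP1, the caspase of inflammasomes, at -0.04 ± 0.05. TP53INP1, a stress protein of autophagy and cell death, was at -0.11 ± 0.12, while its other probe set above the median was at 0.12. PERP, a membrane protein best known from epithelia, was the one member whose main probe set lay below the median of all values, at 3.19 with cortistatin A and 3.37 with DMSO, and its difference of -0.18 ± 0.16 carries little information at that signal.

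**Figure D3:**
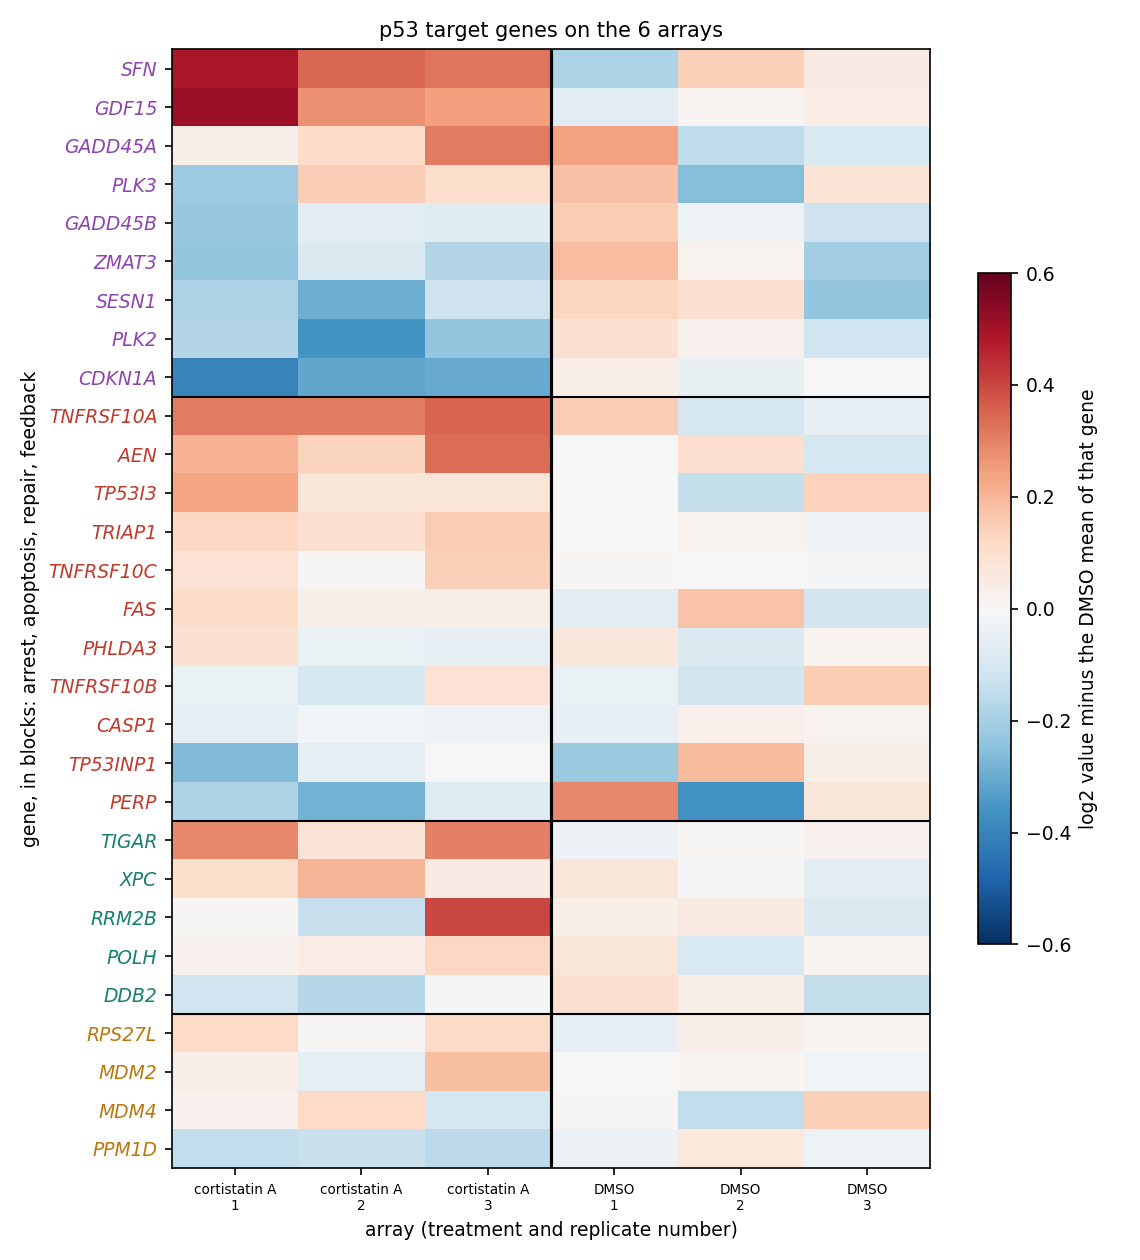
Each array's log2 value minus the DMSO mean of the same gene, for the 29 measured p53 target genes in blocks by role, with the 3 cortistatin A arrays left of the 3 DMSO arrays and red above, blue below the DMSO mean. Rows such as TNFRSF10A and CDKN1A keep one colour over all 3 cortistatin A arrays, while RRM2B is set apart by cortistatin A replicate 3 alone.

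Of the genes of DNA repair and damage protection, all 5 were measured, 4 with a positive and 1 with a negative difference (median 0.09), and 0 passed over all genes. TIGAR, a phosphatase that lowers glycolytic flux and oxidative stress, read 8.03, 7.82 and 8.05 with cortistatin A, against 7.71, 7.75 and 7.77 with DMSO. The groups did not overlap, though cortistatin A replicate 2 came close to the controls. The difference was 0.22 ± 0.07 (limma adjusted p = 0.284). XPC and DDB2, both damage sensors of nucleotide excision repair, were at 0.12 ± 0.06 and -0.10 ± 0.08. POLH, the polymerase that copies past ultraviolet lesions, was at 0.07 ± 0.06, and its 2 other probe sets above the median were at -0.16 and 0.15. RRM2B, the p53-inducible subunit of ribonucleotide reductase, read 8.20, 8.05 and 8.59 with cortistatin A, against 8.23, 8.24 and 8.10 with DMSO. Its difference of 0.09 ± 0.14 came from replicate 3 of the treated arrays, and without that array it was -0.07.

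The feedback genes of p53 had the smallest median size of difference of any role (0.07 without sign). All 4 were measured, 3 with a positive and 1 with a negative difference (median 0.03), and 0 passed over all genes. MDM2, the ubiquitin ligase that marks p53 for degradation and is one of its most responsive targets, read 7.92, 7.82 and 8.06 with cortistatin A, against 7.88, 7.89 and 7.86 with DMSO. The treated arrays lay on both sides of the controls. The means were 7.93 ± 0.12 with cortistatin A and 7.88 ± 0.01 with DMSO (SD, n = 3 each), a difference of 0.06 ± 0.07 (SE, limma adjusted p = 0.801). The interval of this probe set ran from -0.11 to 0.22, so a rise of its signal above 0.22 on the log2 scale lay outside it. Of the 10 MDM2 probe sets 4 lay above the median of all values, and the 3 besides the brightest gave 0.10, 0.01 and -0.11. The dimmer ones ran from -0.21 to 0.21.

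PPM1D encodes the phosphatase WIP1, which switches off p53 and its upstream kinases. It read 7.78, 7.80 and 7.77 with cortistatin A, against 7.90, 7.99 and 7.90 with DMSO. The treated arrays were lower and close together, and the difference was -0.14 ± 0.05 (limma adjusted p = 0.306). Its other probe set above the median was at -0.07. MDM4, a relative of MDM2 that blocks p53 activity, was at 0.01 ± 0.09, and RPS27L, a ribosomal protein relative that binds MDM2, was at 0.08 ± 0.06. All 3 RPS27L probe sets were positive, between 0.01 and 0.08.

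**Figure D4:**
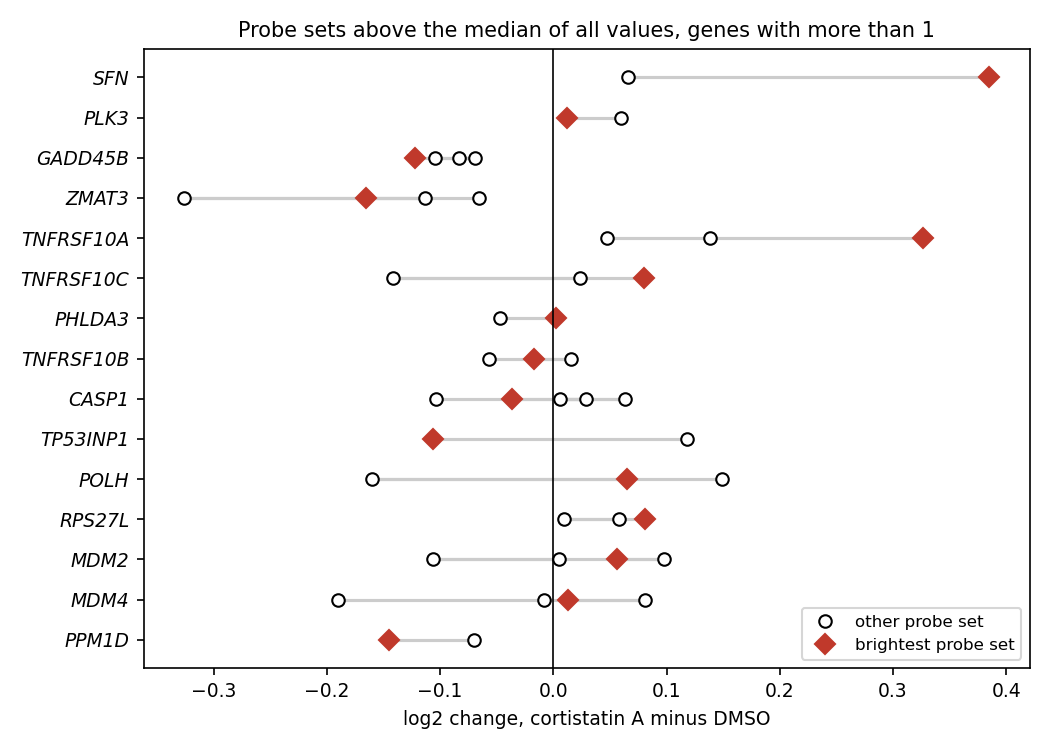
Log2 differences (cortistatin A minus DMSO) of every probe set above the median of all values for the 15 members with more than 1 such probe set, with the brightest as a red diamond and the others as open circles. For SFN and TNFRSF10A the brightest probe set stands apart from the others. Probe sets lie on both sides of 0 for MDM2, MDM4, CASP1, POLH, TNFRSF10B, TNFRSF10C, PHLDA3 and TP53INP1.

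The 29 members had 87 probe sets, and 0 of these passed a limma fit over all probe sets at an adjusted p under 0.05. Of the 31 further probe sets above the median, which belonged to 15 members, 20 had the sign of the brightest one and 11 the opposite sign. CDKN1A, PLK2, AEN, TRIAP1 and TIGAR each had a single probe set, so no second reading of them was available. The main probe sets of 12 members, those of CDKN1A, GDF15 and AEN among them, are of the _s_at or _x_at types, which can bind related transcripts.

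In a wider list of further p53 targets, 33 of 37 genes were measured, with 19 positive and 14 negative differences (median 0.02), and 1 passed over all genes, against 0.582% of all genes. By the unadjusted limma p 4 of the 33 (12.1%) were under 0.05, a share near that of all genes (12.6%). The groups did not overlap for 11 of the 33 (33.3%), against 19.4% of all genes. The gene that passed was PMAIP1, which encodes NOXA, a BH3-only protein that promotes apoptosis. It read 8.55, 8.55 and 8.59 with cortistatin A, against 8.25, 8.17 and 8.20 with DMSO. The groups were well apart. PMAIP1 rose by 0.36 ± 0.05, or 1.28-fold (limma adjusted p = 0.0427). Its call ended without any 1 of the 6 arrays (limma adjusted p from 0.142 to 0.180, difference 0.34 to 0.38). The call also ended when its probe sets were averaged (limma adjusted p = 0.0534), with the replicate number as a block (0.244), with all probe sets tested as such (0.131), with the control index (0.154) and with the beta-actin signal (0.476) as covariates, and over its 15 alternatives the limma adjusted p was 9.2e-05 to 0.476. The genes next in order of p did not pass. TGFA, a ligand of the EGF receptor, was at 0.59 ± 0.11 (limma adjusted p = 0.090), and at 0.34 when its 3 probe sets were averaged. TGFA was called when dim genes were left out (limma adjusted p = 0.0377) and when variances were trended and robust (limma adjusted p = 0.00526). The immediate early gene IER5 was at 0.18 ± 0.07 and the apoptosome scaffold APAF1 at -0.12 ± 0.05. BAX, the pore-forming effector of apoptosis, was at -0.05 ± 0.06, and the unconventional cyclin CCNG1 at -0.06 ± 0.06. BAX and CCNG1 were picked as familiar targets after values had been seen.

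Among the regulators of p53, 24 of 28 listed genes were measured, with 9 positive and 15 negative differences (median -0.07), and 0 passed over all genes. EP300 and CREBBP, the acetyltransferases that serve p53 as coactivators, had the smallest and the third smallest p. EP300 read 7.44, 7.41 and 7.46 with cortistatin A, against 7.67, 7.64 and 7.71 with DMSO. CREBBP read 7.33, 7.31 and 7.38 with cortistatin A, against 7.50, 7.46 and 7.56 with DMSO. Both were lower on every treated array, with differences of -0.23 ± 0.05 and -0.17 ± 0.05 (limma adjusted p = 0.131 and 0.267). SIRT1, a deacetylase that acts on p53, was at -0.26 ± 0.07 (limma adjusted p = 0.223), and the corepressor TRIM28 at -0.14 ± 0.07 (limma adjusted p = 0.461). With arrays centred on housekeeping genes the median of this list was -0.01, since that centring moved the median of all genes to 0.06. It was -0.03 without cortistatin A replicate 2, -0.03 with averaged probe sets and -0.02 over all probe sets. By the unadjusted limma p 3 of the 24 (12.5%) were under 0.05, against 12.6% of all genes. The groups did not overlap for 8 of the 24 (33.3%), 7 of them lower, against 19.4% of all genes.

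Pearson's r across genes was 0.9975 to 0.9979 for pairs of cortistatin A arrays, 0.9975 to 0.9977 for pairs of DMSO arrays and 0.9969 to 0.9974 for pairs with 1 of each. The labels do not say that replicates were separate cultures, so the p-values cover the spread among these samples, which may be technical. Of the myeloid markers 9 of 10 measured lay above the median of all values, CD14 being below it, and of markers of other cell types 7 of 12 did. Among the myeloid markers 2 of 10 passed over all genes, against 0.582% of all genes. They were the receptor kinase KIT (0.54 ± 0.06, limma adjusted p = 0.0227) and the transcription factor CEBPA (0.42 ± 0.05, limma adjusted p = 0.0248). The receptor kinase FLT3 was at -0.20 ± 0.05 (limma adjusted p = 0.196), and 0 of the 12 markers of other cell types passed or had an unadjusted limma p under 0.05. The 3′ minus 5′ signal of beta-actin, which depends on RNA integrity and labelling, was 1.95 ± 0.11 with cortistatin A and 1.75 ± 0.06 with DMSO (SD, n = 3 each) and did not overlap between the groups. With this signal as a covariate 3 members (10.3%) had an unadjusted limma p under 0.05, against 8.94% of all genes. The median of the members was -0.06, while 0 members and 0 genes were called. Since the signal differed between the groups on every array, this fit separates it poorly from treatment. The standard error of CDKN1A, for one, was 0.09 in it, against 0.05 in the main fit.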

How the data were processed

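The deposited table holds 1 log2 value per probe set and array (54675 probe sets, values 0.81 to 13.84). The authors made these log2 values with RMA and the affy package, per the submitters' processing notes, and the table itself states no scale. Versions are not given in the sources used here. RMA usually includes quantile normalization between arrays, so a shift of all transcripts would be removed. Depth does not apply, and the 3 arrays per group limit the precision.

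Of the probe sets 62 are controls, 41091 name 1 gene, 1801 several and 11721 none in the platform annotation, whose symbols were brought up to date by RefSeq gene identifier. All 19775 genes were compared with limma 3.58.1 in R 4.3.3 (lmFit, eBayes, two-sided, with treatment and no covariate in the model, Benjamini-Hochberg over all genes, threshold 0.05, 4 residual and 2.68 prior degrees of freedom), and members were read from that fit. The step was tested on simulated data. Intervals are limma's 95% intervals, not adjusted for the number of genes. A probe set was called dim at or below the median of all values (3.75), which is not a detection limit.

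Every member was described, with array values for those at an unadjusted p under 0.05, and for MDM2. TNFRSF10B and RRM2B were added to these after their values were seen. Of the further targets and the regulators the 4 genes with the smallest p were named. BAX, CCNG1 and the markers were named after values were seen. The members and lists were chosen with earlier results of these data known. Alternatives were the replicate block, dim genes left out, the mean of probe sets, no _x_at and _s_at types, all probe sets, a further quantile normalization, housekeeping centring, each array left out, variances that are trended and robust, at least 1.2-fold, an adjusted p under 0.1, and the mean 3′ minus 5′ signal of 22 control transcripts as a covariate. The beta-actin covariate was chosen after seeing the data. Promoter windows are from RefSeq GRCh38.p14.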

Additional observations from a re-analysis of the deposited data

How the results depend on the processing

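The number of genes called over the whole table depended on the setting, and the count of listed p53 target members called was 0 in most settings. Where 0 genes were called over the whole table, the 0 for the members followed from that and says nothing about them. Of all genes 115 were called. The count was 0 with the replicate block, 321 with dim genes left out, 54 without _x_at and _s_at types, 762 with trend and robust variances, 76 with averaged probe sets, 28 with all probe sets tested as such, 260 at an adjusted p under 0.1, 0 with either 3′ to 5′ covariate and 0 to 4 without 1 array. At an unadjusted p under 0.05 there were 2243 genes with the block, 1960 and 1768 with the control index and the beta-actin covariate and 1952 to 2342 without 1 array, against 2499. Housekeeping centring gave 144 higher and 17 lower calls, against 88 and 27. Of the members 1 was called with dim genes left out (321 of 12622 genes were) and 1 at an adjusted p under 0.1 (260 of 19775 genes), both times CDKN1A. With trend and robust variances 5 of the 29 members were called (CDKN1A, TNFRSF10A, SFN, TIGAR and TRIAP1), against 762 of the 19775 genes. Of the 24 measured regulators 1 was called with dim genes left out and 2 with trend and robust variances, against 0 in the main fit. The counts over all genes in these settings were the same 321 and 762. The labels do not say what the replicate numbers share, and arrays of the same number did not deviate together (r = -0.0548, 0.00946 and 0.0161), so the block was not taken as a pairing. The median change of the members, 0.056, stayed within the spread between replicates except with the beta-actin covariate (-0.0647). The median of the repair genes was -0.0647 with that covariate, and that of the feedback genes -0.0166 with it and -0.0186 with averaged probe sets. Of the 29 members 17 kept their sign in all alternatives, and the sign of 12 others turned. The 9 with an unadjusted p under 0.05 were among the 17. Their groups did not overlap, so leaving out 1 array could not turn their sign. The replicate block, dim genes left out and trended and robust variances do not alter a difference, so they could not turn a sign either. With the mean of probe sets PHLDA3 was at -0.0222, TP53INP1 at 0.0391, MDM2 at -0.00066, MDM4 at -0.0366, and of the other lists APAF1 at 0.0221 and CREBBP at 0.00501. Without _x_at and _s_at types FAS was at -0.107 and PERP at 0.0302. With housekeeping centring TNFRSF10B was at 0.0377 and CASP1 at 0.0176. With a further quantile normalization MDM4 was at -0.0034, and with the control index PERP was at 0.0134. With the beta-actin covariate GADD45A was at -0.128, PLK3 at -0.278, RRM2B at -0.260, POLH at -0.0647 and MDM2 at -0.0914. Without 1 array the ranges were -0.117 to 0.127 for PLK3, -0.0724 to 0.0589 for TNFRSF10B, -0.0428 to 0.0367 for PHLDA3, -0.0668 to 0.203 for RRM2B, -0.0069 to 0.112 for MDM2 and -0.0609 to 0.0843 for MDM4. The cause of these turns was not tested. Signal limits PERP, GDF15, PLK2 and FAS most, whose probe sets lay below or near the median of all values.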
